A study of Mus musculus with 8 samples.

Results

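The genes described here are the phase II conjugation enzymes of the mouse liver: the glutathione S-transferases (*Gst* and the membrane-bound *Mgst*), the UDP-glycosyltransferases (*Ugt*) and the cytosolic sulfotransferases (*Sult*). They were chosen by symbol among the protein-coding rows of the deposited count table, and rows with fewer than 80 counts summed over all livers were dropped. The symbol rule matched 67 rows, of which 46 were kept, out of 46078 gene identifiers in all: 20 *Gst*, 2 *Mgst*, 17 *Ugt* and 7 *Sult* genes. The 21 dropped rows included 6 with 0 counts in every liver. *Ugt1a2*, with 84 counts, was the kept gene nearest the limit, and *Sult1e1*, with 79, and *Ugt1a10*, with 68, lay just under it. RNA-seq of poly(A)-enriched RNA had been made from the livers of 4 LWT mice (Alb_cre−, Rbfox2 loxP/loxP) and 4 LΔRbfox2 mice (Alb_cre+, Rbfox2 loxP/loxP), with 1 library per liver. Both groups carried the floxed *Rbfox2* alleles and were male mice on a control diet, labelled as chow, for 12 weeks according to the labels, and their livers were taken after a 16 h fast. The study's methods give a longer time on the diet, and the labels do not give an age. Cre was driven by the albumin promoter, by which the study aimed to delete *Rbfox2* in hepatocytes only. *Rbfox2* in the other cells of these livers was not measured apart. RBFOX2 is an RNA-binding protein that regulates alternative splicing. The comparison asked which conjugation enzyme mRNAs differed in level when the hepatocytes lacked it.

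Conjugation enzymes attach a polar group to drugs, hormones, bile acids, bilirubin and reactive products of metabolism, which makes them easier to carry in blood and to excrete in bile and urine. Glutathione S-transferases use glutathione, UDP-glycosyltransferases mostly use UDP-glucuronic acid, and sulfotransferases use the sulfate donor PAPS. The hepatocyte is the main site of these reactions, and the nuclear receptors PXR and CAR, the aryl hydrocarbon receptor and NRF2 are known to regulate many of the enzymes.

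*Rbfox2* itself was measured first, as a check of the labels. In replicates 1, 2, 3 and 4 it had 653, 518, 549 and 794 counts in LWT livers and 202, 390, 77 and 103 in LΔRbfox2 livers. After TMM scaling these counts gave 14.3 ± 3.96 CPM (SD, n = 4) in LWT livers and 4.03 ± 1.68 CPM (SD, n = 4) in LΔRbfox2 livers, where CPM is the count scaled to a common library size. Every LΔRbfox2 liver lay under every LWT liver, and the log2 fold change (LΔRbfox2 over LWT) of −1.82 had a standard error of 0.32 and an adjusted p of 0.504 in edgeR's quasi-likelihood test. In DESeq2 its adjusted p was 0.00023, so that the call on *Rbfox2* differs between the tools.

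The libraries held 37482458 to 56177588 counts. LΔRbfox2 replicates 3 and 4 stood apart, with TMM scaling factors of 0.724 and 0.776 against 1.02 to 1.14 in the other livers. In these livers the major urinary protein genes took 43.6% and 37.5% of all counts, against 21.4% to 37.1% elsewhere. When both were left out, the log2 fold change of 13 of the 46 conjugation genes changed sign. Markers of hepatocytes summed to between 48799 and 73144 CPM in LWT livers and between 54548 and 77987 CPM in LΔRbfox2 livers, and 0 of 5 had an unadjusted p under 0.05. Kupffer cell markers summed to 52.6 to 91.7 CPM in LWT livers and 29.9 to 61.8 CPM in LΔRbfox2 livers, with *Clec4f* at an unadjusted p under 0.05 and lower in LΔRbfox2. Cholangiocyte markers summed to 14.6 to 25.8 and 16.4 to 60.9 CPM, and the top value came from *Spp1* in LΔRbfox2 replicate 3. Endothelial and stellate markers overlapped between genotypes, lymphocyte markers summed to at most 1.39 CPM, and both kidney markers had 0 counts in every liver. The intestinal and pancreatic markers (*Fabp2*, *Vil1*, *Cela1* and *Prss2*) summed to 53.7 to 156 CPM in LWT livers and 97.2 to 242 CPM in LΔRbfox2 livers. Most of that sum was *Fabp2*, which was higher in LΔRbfox2 livers at an unadjusted p under 0.05, with a log2 fold change of 0.88. *Cela1* stood at 3.04 to 9.85 CPM, with a log2 fold change of 0.55. *Vil1* had at most 3 counts in any liver and was not tested, and *Prss2* had 0 counts in every liver. The part that any of these played in the results was not tested. In whole liver, fewer cells of a type and less RNA per cell cannot be told apart.

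All 46 conjugation genes passed the filter on low counts and were tested among 13856 genes. None reached an adjusted p of 0.05 in edgeR, and neither did any other gene, so the background was 0% by that rule. DESeq2 called 10 of the 13856 genes and limma-voom 0, and neither tool called a conjugation gene. On simulated counts, edgeR and limma-voom each recovered 0 of 200 genes given a log2 fold change of 1 by this rule. The absence of calls therefore does not show that changes of that size were absent. At an unadjusted p under 0.05, 5 of the 46 genes (10.9%) were higher in LΔRbfox2 livers: *Sult2a7*, *Sult1d1*, *Sult1b1*, *Sult2a8* and *Ugt2b1*. Of all tested genes, 7.95% were higher by this rule. No conjugation gene was lower by it, against 1.83% of all tested genes. Values of the 2 genotypes overlapped for all 46 genes, whereas 1.05% of all tested genes were higher and 1.23% lower without overlap. These shares put the conjugation genes near the background in every one of these counts.

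Most of the fitted values lay above 0. The log2 fold change was above 0 for 38 of the 46 genes (82.6%) and below 0 for 8, while 48.4% of all tested genes had a value above 0. The median log2 fold change was 0.26, against −0.015 over all tested genes, and the median standard error of a single gene was 0.28. Values above 0 were not particular to the conjugation genes. Hepatocyte markers were above 0 in 5 of 5 (median 0.25) and the major urinary protein genes in 20 of 20 tested (median 0.46). Kupffer cell and endothelial markers were above 0 in 1 of 5 each, stellate markers in 2 of 5 and cholangiocyte markers in 4 of 4 tested. The scaling of the libraries moved the values of the conjugation genes. Without scaling factors the median of all tested genes lay at −0.23 and that of the conjugation genes at 0.022, with 24 of the 46 above 0 and 37 above the median of all genes, a number that was 39 with TMM factors. Without LΔRbfox2 replicates 3 and 4, 25 of the 46 were above 0 and the median was 0.028. By family, the median was 0.94 for *Sult*, 0.47 for *Mgst*, 0.23 for *Gst* and 0.22 for *Ugt*. Without scaling factors the *Gst* and *Ugt* medians turned to −0.026 and −0.064, and those of *Sult* and *Mgst* were 0.58 and 0.15. Without LΔRbfox2 replicates 3 and 4 the *Ugt* and *Mgst* medians were −0.11 and −0.14, and those of *Gst* and *Sult* 0.058 and 0.19.

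**Figure D1:**
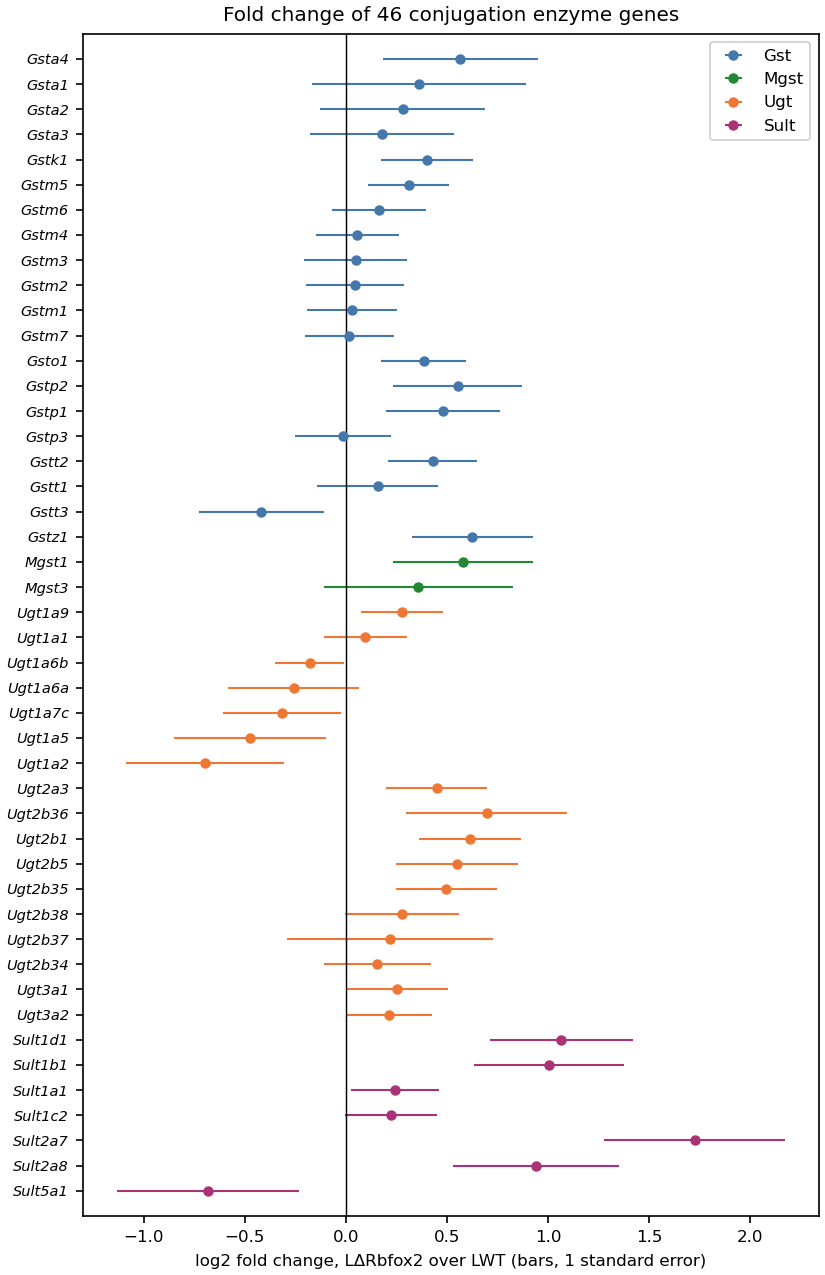
Fitted log2 fold change (LΔRbfox2 over LWT, horizontal axis) of each of the 46 conjugation genes (vertical axis, grouped by family and class), with bars of 1 standard error. The *Sult* genes span the widest range, from −0.68 for *Sult5a1* to 1.73 for *Sult2a7*, and 8 genes, of which 5 are *Ugt1a* genes, lie to the left of 0.

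The sulfotransferases held 4 of the 5 genes with an unadjusted p under 0.05, and 6 of their 7 log2 fold changes were above 0 (5 of 7 without scaling factors, and 5 of 7 without LΔRbfox2 replicates 3 and 4). *Sult2a7* (ENSMUSG00000094156; GRCm38 chromosome 7, 14465051 to 14494230, minus strand) belongs to the hydroxysteroid class of sulfotransferases. Its counts were 33, 88, 64 and 52 in LWT replicates 1 to 4 and 144, 112, 240 and 168 in LΔRbfox2 replicates 1 to 4. On the CPM scale these were 0.862, 1.77, 1.33 and 1.20 in LWT livers and 3.29, 1.75, 6.98 and 5.202 in LΔRbfox2 livers. LΔRbfox2 replicates 1, 3 and 4 were above all LWT livers, and LΔRbfox2 replicate 2 lay just under LWT replicate 2. The means were 1.29 ± 0.375 CPM (SD, n = 4) in LWT livers and 4.30 ± 2.27 CPM (SD, n = 4) in LΔRbfox2 livers, a log2 fold change of 1.73 with a standard error of 0.45. The edgeR p was 0.00186 and the adjusted p 0.504, and the two-sided exact permutation test gave p = 0.0571, where the smallest that 4 livers against 4 allow is 0.0286. The unadjusted p stayed under 0.05 in all 21 alternative settings that were run, with a log2 fold change between 0.92 and 1.99 and an adjusted p from 0.070 to 1.0. Without LΔRbfox2 replicates 3 and 4 the log2 fold change was 0.92.

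*Sult2a8* (ENSMUSG00000030378; chromosome 7, 14410686 to 14446769, minus strand) lies beside *Sult2a7* and encodes an enzyme known to sulfate bile acids. It was the sixth of the 46 genes by level, with a mean over the 8 livers of 268 CPM per kb of exon, against 2.19 CPM per kb for *Sult2a7*. Its CPM values were 512, 882, 573 and 442 in LWT livers and 686, 517, 1341 and 2076 in LΔRbfox2 livers. Only LΔRbfox2 replicates 3 and 4 exceeded the highest LWT liver. The means were 602 ± 194 CPM (SD, n = 4) in LWT livers and 1155 ± 709.5 CPM (SD, n = 4) in LΔRbfox2 livers, with a log2 fold change of 0.94, a standard error of 0.41, an edgeR p of 0.0477 and an adjusted p of 0.504. Without LΔRbfox2 replicates 3 and 4 the log2 fold change was −0.033. The p was under 0.05 in 8 of 21 alternatives.

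The first 90 coding bases of both genes, in GENCODE M21 on GRCm38, show how far these neighbours differ, with capitals at the 39 positions where the letters are not the same.
Sult2a7: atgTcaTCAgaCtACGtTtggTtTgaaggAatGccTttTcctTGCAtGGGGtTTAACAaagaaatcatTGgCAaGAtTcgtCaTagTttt
Sult2a8: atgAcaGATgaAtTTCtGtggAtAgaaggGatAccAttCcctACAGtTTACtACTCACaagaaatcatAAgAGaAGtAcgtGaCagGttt
Over 846 aligned coding bases the genes were 66.4% identical. No 100-base stretch of either gene was shared with another gene, so reads of this length can be told apart between them. The *Sult2a1* and *Sult2a2* rows of the same class had 46 and 42 counts over all livers and were among those dropped.

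*Sult1d1* (ENSMUSG00000029273; chromosome 5, 87554645 to 87569027, minus strand) encodes a sulfotransferase of catecholamines and other phenols. Its CPM values were 77.1, 94.8, 94.2 and 69.97 in LWT livers and 139.9, 73.5, 253 and 237 in LΔRbfox2 livers. LΔRbfox2 replicates 1, 3 and 4 were above all LWT livers, and LΔRbfox2 replicate 2 lay between the LWT livers. The means were 84.0 ± 12.5 CPM (SD, n = 4) in LWT livers and 176 ± 84.6 CPM (SD, n = 4) in LΔRbfox2 livers, with a log2 fold change of 1.07, a standard error of 0.35 and an edgeR p of 0.0110 (adjusted p = 0.504). The p was under 0.05 in 18 of 21 alternatives, with a log2 fold change between 0.31, the value without LΔRbfox2 replicates 3 and 4, and 1.32.

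*Sult1b1* (ENSMUSG00000029269; chromosome 5, 87513339 to 87538195, minus strand), a neighbour of *Sult1d1* on the same strand, encodes a sulfotransferase of thyroid hormones and phenols. Its CPM values were 11.9, 23.1, 14.3 and 14.5 in LWT livers and 18.1, 18.9, 56.7 and 34.5 in LΔRbfox2 livers. Only LΔRbfox2 replicates 3 and 4 were above the highest LWT liver. The means were 15.9 ± 4.91 CPM (SD, n = 4) in LWT livers and 32.0 ± 18.1 CPM (SD, n = 4) in LΔRbfox2 livers, with a log2 fold change of 1.004, a standard error of 0.37 and an edgeR p of 0.0227 (adjusted p = 0.504). The p was under 0.05 in 12 of 21 alternatives, with a log2 fold change between 0.19, again without LΔRbfox2 replicates 3 and 4, and 1.24.

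*Sult1a1*, the main phenol sulfotransferase, had the second highest level of its family at 149.97 CPM per kb. Its CPM values were 151, 199, 239 and 240.1 in LWT livers and 224, 207, 326 and 222 in LΔRbfox2 livers. All but LΔRbfox2 replicate 3 lay within the LWT range, and the log2 fold change of 0.24 had a standard error of 0.22 (adjusted p = 0.643 in edgeR). Without scaling factors it was −0.024, and 0.030 with LΔRbfox2 replicates 3 and 4 left out. The other 2 members were low in level. *Sult1c2*, at 0.746 CPM per kb, had a log2 fold change of 0.22. *Sult5a1*, at 1.43 CPM per kb, was the only *Sult* gene with a value below 0, at −0.68 with a standard error of 0.45. Its CPM values were 9.77, 4.74, 4.72 and 11.9 in LWT livers and 1.80, 5.56, 5.87 and 6.13 in LΔRbfox2 livers, so that LWT replicates 1 and 4 were high and LΔRbfox2 replicate 1 was low.

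**Figure D2:**
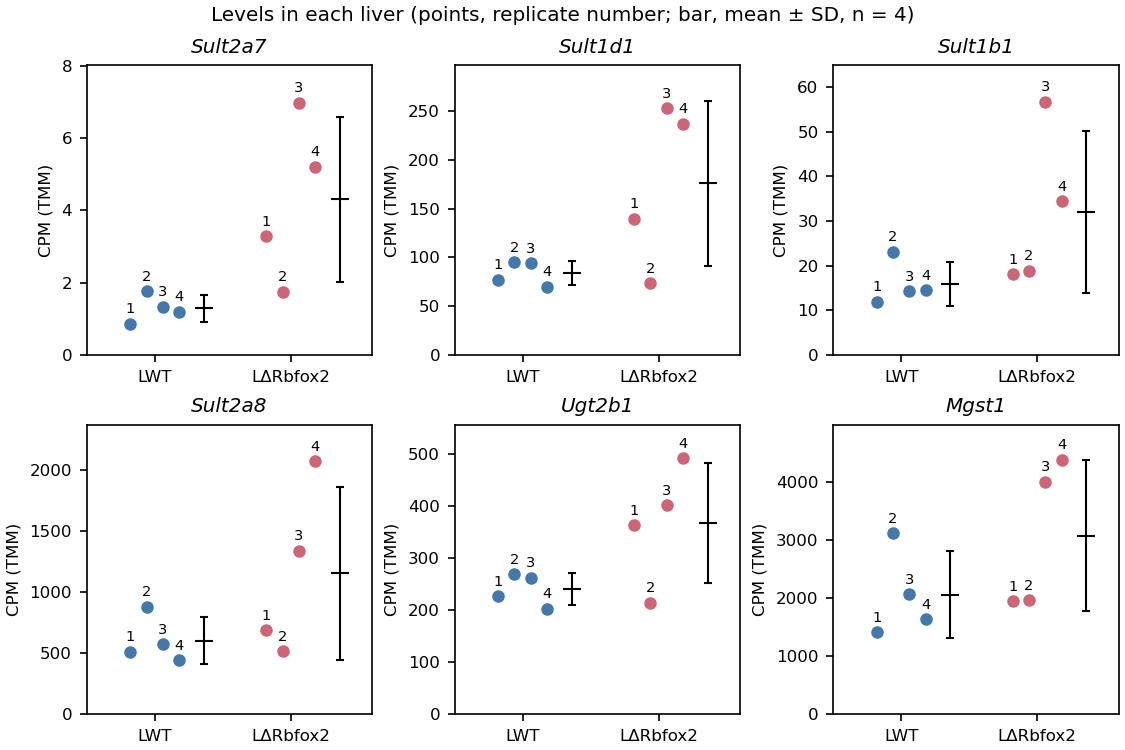
CPM after TMM scaling (vertical axis) of 6 conjugation genes in each of the 4 LWT and 4 LΔRbfox2 livers, as points numbered by replicate, with the mean ± SD beside each group. LΔRbfox2 replicates 3 and 4 are the highest 2 livers in every panel, while LΔRbfox2 replicate 2 lies within the range of the LWT points.

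The promoters of 4 of the 5 genes with an unadjusted p under 0.05, all but *Sult2a7*, are given for the starts that RefSeq lists on GRCm38.p6, as 300 bases from upstream of the start to just past it, on the gene's strand. Capitals mark a GCGTG, the core of the element bound by the aryl hydrocarbon receptor, or CACGC, its reverse complement.
Sult1d1, chr5:87568957-87569256, minus strand: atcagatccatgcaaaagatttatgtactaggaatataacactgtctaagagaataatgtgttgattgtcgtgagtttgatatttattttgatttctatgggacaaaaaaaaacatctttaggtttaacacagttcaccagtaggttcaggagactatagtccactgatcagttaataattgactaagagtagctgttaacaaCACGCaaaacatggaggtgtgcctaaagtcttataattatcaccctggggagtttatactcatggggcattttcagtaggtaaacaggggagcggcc
Sult1b1, chr5:87536173-87536472, minus strand: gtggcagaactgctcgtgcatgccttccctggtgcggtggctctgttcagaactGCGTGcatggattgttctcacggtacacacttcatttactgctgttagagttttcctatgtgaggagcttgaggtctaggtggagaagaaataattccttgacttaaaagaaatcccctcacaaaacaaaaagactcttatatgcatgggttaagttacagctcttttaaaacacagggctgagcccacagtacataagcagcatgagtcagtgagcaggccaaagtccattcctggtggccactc
Sult1b1, chr5:87538146-87538445, minus strand: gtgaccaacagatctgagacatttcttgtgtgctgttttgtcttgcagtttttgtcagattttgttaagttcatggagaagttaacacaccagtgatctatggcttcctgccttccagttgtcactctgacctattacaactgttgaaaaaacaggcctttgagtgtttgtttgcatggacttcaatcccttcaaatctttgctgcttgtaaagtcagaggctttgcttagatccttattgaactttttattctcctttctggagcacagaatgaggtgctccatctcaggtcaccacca
Sult2a8, chr7:14446538-14446837, minus strand: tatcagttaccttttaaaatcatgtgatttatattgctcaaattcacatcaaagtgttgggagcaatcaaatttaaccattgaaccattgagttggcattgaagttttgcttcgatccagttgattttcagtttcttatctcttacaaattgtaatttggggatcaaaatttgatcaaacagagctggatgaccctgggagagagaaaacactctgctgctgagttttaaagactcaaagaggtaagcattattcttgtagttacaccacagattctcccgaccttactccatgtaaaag
Sult2a8, chr7:14438502-14438801, minus strand: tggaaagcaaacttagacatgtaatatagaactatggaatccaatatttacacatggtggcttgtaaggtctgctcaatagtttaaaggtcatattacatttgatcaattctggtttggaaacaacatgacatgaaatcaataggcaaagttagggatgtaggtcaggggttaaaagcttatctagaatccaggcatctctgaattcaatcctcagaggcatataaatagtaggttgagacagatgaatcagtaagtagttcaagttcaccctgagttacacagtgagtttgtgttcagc
Ugt2b1, chr5:86926454-86926753, minus strand: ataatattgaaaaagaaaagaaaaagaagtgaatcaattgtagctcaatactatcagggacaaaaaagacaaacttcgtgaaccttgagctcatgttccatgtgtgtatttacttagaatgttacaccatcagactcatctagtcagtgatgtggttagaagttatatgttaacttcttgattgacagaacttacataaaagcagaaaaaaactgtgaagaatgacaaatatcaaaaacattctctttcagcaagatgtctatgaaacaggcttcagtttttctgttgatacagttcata
Of the 46 genes, 41 had at least 1 promoter in this set, with 51 promoters in all. GCGTG, searched on both strands, was found in 11 of the 51 (21.6%), against 32.4% of all 32851 promoters of the same length. TGACNNNGC, the core of the antioxidant response element bound by NRF2, was found on either strand of 4 of the 51 (7.84%), against 12.4% of all promoters. None of the 6 promoters shown held TGACNNNGC, and a match of letters is a description of these windows only.

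*Ugt2b1* (ENSMUSG00000035836; chromosome 5, 86916638 to 86926530, minus strand) was the UDP-glycosyltransferase gene with the smallest p. The enzymes of the *Ugt2b* class glucuronidate steroids, bile acids and many drugs. CPM values of *Ugt2b1* were 226, 269, 262 and 203 in LWT livers and 362, 214, 401 and 491 in LΔRbfox2 livers. LΔRbfox2 replicates 1, 3 and 4 were above all LWT livers and LΔRbfox2 replicate 2 was within their range. The means were 239.9 ± 31.1 CPM (SD, n = 4) in LWT livers and 367 ± 115 CPM (SD, n = 4) in LΔRbfox2 livers, with a log2 fold change of 0.61, a standard error of 0.25 and an edgeR p of 0.0315 (adjusted p = 0.504). The p was under 0.05 in 10 of 21 alternatives, with a log2 fold change between 0.21 and 0.80, and the value was 0.23 without LΔRbfox2 replicates 3 and 4.

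With TMM, DESeq2 or upper-quartile factors all 7 *Ugt2b* genes had a log2 fold change above 0, and 5 of 7 without scaling factors or without LΔRbfox2 replicates 3 and 4. With TMM factors the values ran from 0.16 for *Ugt2b34* to 0.70 for *Ugt2b36*, with a median of 0.50. The genes lie on chromosome 5 of GRCm38 between 86889767 and 87424203, within 534 kb. Their summed CPM was 1553, 2258, 1906 and 1270.4 in LWT livers and 2591, 1363, 2380.1 and 3696 in LΔRbfox2 livers, so LΔRbfox2 replicates 1, 3 and 4 were above the LWT livers and LΔRbfox2 replicate 2 was next to the lowest LWT liver. *Ugt2b5* was the most abundant UDP-glycosyltransferase mRNA, at 401 CPM per kb, and had CPM values of 547, 769, 658 and 449 in LWT livers and 992, 477, 775 and 1300.1 in LΔRbfox2 livers. Its log2 fold change of 0.55 had a standard error of 0.30 (adjusted p = 0.532 in edgeR), and 24.7% of its 100-base windows also occur in another gene. *Ugt2b36*, at 258 CPM per kb, had 352, 579, 453 and 238 CPM in LWT livers and 632, 279.6, 651 and 1065 CPM in LΔRbfox2 livers. Its log2 fold change of 0.70 had a standard error of 0.40 (adjusted p = 0.533 in edgeR). *Ugt2b35* had 111, 138, 110.3 and 91.8 CPM in LWT livers and 158, 101, 146 and 231 CPM in LΔRbfox2 livers, with a log2 fold change of 0.50, a standard error of 0.25 and an edgeR p of 0.0737 (adjusted p = 0.521). In *Ugt2b5*, *Ugt2b36* and *Ugt2b35* LΔRbfox2 replicate 4 was the highest liver and LWT replicate 4 the lowest, and with LΔRbfox2 replicates 3 and 4 left out their log2 fold changes were 0.24, 0.13 and 0.17. *Ugt2b34* and *Ugt2b37* turned to −0.20 and −0.45 in that setting. *Ugt2b37* stood at 1.18 CPM per kb, and its highest LWT liver was replicate 4, with 2.12, 1.29, 0.936 and 3.89 CPM in LWT livers and 1.92, 1.16, 1.83 and 4.71 CPM in LΔRbfox2 livers.

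*Ugt2a3*, which lies among the *Ugt2b* genes on chromosome 5 (87324972 to 87337195), had 166, 247, 164 and 119.9 CPM in LWT livers and 248, 164, 267 and 272 CPM in LΔRbfox2 livers. LΔRbfox2 replicates 1, 3 and 4 were above all LWT livers, the closest by about 1 CPM, and the log2 fold change, 0.21 without LΔRbfox2 replicates 3 and 4, was 0.45 with a standard error of 0.25 (adjusted p = 0.533 in edgeR). The *Ugt3a* genes encode enzymes that use other sugars in place of glucuronic acid. *Ugt3a1* and *Ugt3a2*, side by side on chromosome 15 (9276888 to 9370955), had log2 fold changes of 0.25 and 0.21, with standard errors of 0.25 and 0.21, and both were below 0 without scaling factors and also without LΔRbfox2 replicates 3 and 4 (−0.13 and −0.11). *Ugt3a2* had 214, 293, 244 and 195 CPM in LWT livers and 238, 208, 347 and 301 CPM in LΔRbfox2 livers, with LΔRbfox2 replicates 3 and 4 above the LWT livers.

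The *Ugt1a* genes had the lowest median log2 fold change among the classes of the *Ugt* family. Their 7 log2 fold changes ran from −0.70 for *Ugt1a2* to 0.28 for *Ugt1a9*, with a median of −0.26, and 2 of 7 were above 0 (1 of 7 without scaling factors). None of them had an unadjusted p under 0.05 in the main fit. *Ugt1a5* and *Ugt1a6b* were lower at that p after correction for GC content and exon length, and *Ugt1a5* also with 1 surrogate variable. Whether the *Ugt1a* and *Ugt2b* values differ was not tested. *Ugt1a1*, whose product conjugates bilirubin, made up most of the class, with 96.7, 149, 157 and 122 CPM in LWT livers and 109.9, 158, 155 and 138 CPM in LΔRbfox2 livers and a log2 fold change of 0.096 (standard error 0.20). The summed CPM of the class was 161, 221, 242 and 183 in LWT livers and 180.2, 221, 218 and 209 in LΔRbfox2 livers, with every LΔRbfox2 liver inside the LWT range. *Ugt1a5* had 5.41, 16.1, 14.6 and 6.63 CPM in LWT livers and 9.14, 5.21, 9.25 and 7.25 CPM in LΔRbfox2 livers, and *Ugt1a6a* had 9.30, 3.72, 3.72 and 7.94 CPM and 5.002, 6.06, 5.29 and 4.21 CPM. The LWT livers of both were split, replicates 2 and 3 high for *Ugt1a5* and replicates 1 and 4 high for *Ugt1a6a*. Leaving out the *Ugt1a* genes, 36 of the 39 other conjugation genes had a value above 0, with a median of 0.31, with 23 of 39 above 0 without scaling factors and 23 of 39 without LΔRbfox2 replicates 3 and 4. The *Ugt1a* genes lie between 88070800 and 88220002 on chromosome 1, have first exons of their own and share all later exons. From 50.3% to 60.6% of their exon bases lie in exons of another gene on the same strand, and 58.5% to 100% of their 100-base windows also occur in another gene, so how the reads were split among them is uncertain.

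Among the glutathione S-transferases, 18 of 20 log2 fold changes were above 0 (14 of 20 with upper-quartile factors 10 of 20 without scaling factors and 12 of 20 without LΔRbfox2 replicates 3 and 4), none with an unadjusted p under 0.05. *Gstz1*, which also serves as maleylacetoacetate isomerase in tyrosine breakdown, had the smallest p. Its CPM values were 365, 617, 462 and 372 in LWT livers and 559.8, 397, 898 and 944 in LΔRbfox2 livers, and LΔRbfox2 replicates 3 and 4 were above all LWT livers. The means were 454 ± 117 CPM (SD, n = 4) in LWT livers and 699.9 ± 265 CPM (SD, n = 4) in LΔRbfox2 livers, with a log2 fold change of 0.62, a standard error of 0.30 and an edgeR p of 0.0633 (adjusted p = 0.511). *Gstt2*, of the theta class, had 40.9, 74.2, 45.9 and 53.4 CPM in LWT livers and 62.7, 59.7, 85.8 and 80.5 CPM in LΔRbfox2 livers, with a log2 fold change of 0.43, a standard error of 0.22 and an edgeR p of 0.0793 (adjusted p = 0.523). *Gsto1*, of the omega class of thiol transferases, had 52.6, 71.9, 63.7 and 44.6 CPM in LWT livers and 70.9, 57.4, 90.5 and 85.3 CPM in LΔRbfox2 livers, with a log2 fold change of 0.39, a standard error of 0.21 and an edgeR p of 0.0925 (adjusted p = 0.529). In all 3 genes LΔRbfox2 replicates 3 and 4 exceeded the highest LWT liver, which was replicate 2. Without LΔRbfox2 replicates 3 and 4 the values of *Gstz1*, *Gstt2* and *Gsto1* were 0.042, 0.16 and 0.11. *Gstt3* was the *Gst* gene with the lowest value, at −0.42 with a standard error of 0.31. It had 11.6, 20.5, 14.1 and 11.8 CPM in LWT livers and 7.08, 9.31, 18.7 and 8.24 CPM in LΔRbfox2 livers, and 3 LΔRbfox2 livers were below all LWT livers.

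*Gstp1* and *Gstp2*, of the pi class, were the second and the fourth most abundant conjugation mRNAs, at 709.9 and 369.9 CPM per kb. Their coding sequences differ at 12 of 633 bases (98.1% identical), and 52.8% of the 100-base windows of *Gstp1* and 63.5% of those of *Gstp2* also occur in another gene, so their split is uncertain. The first 90 coding bases, from GENCODE M21 on GRCm38, carry 6 of the differences, here in capitals.
Gstp1: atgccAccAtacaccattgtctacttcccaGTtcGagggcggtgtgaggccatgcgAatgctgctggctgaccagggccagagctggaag
Gstp2: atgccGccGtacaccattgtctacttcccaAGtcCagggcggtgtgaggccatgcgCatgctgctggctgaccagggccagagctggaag
*Gstp1* had 996, 928, 1165 and 581 CPM in LWT livers and 1452, 827, 1134 and 1708 CPM in LΔRbfox2 livers, with a log2 fold change of 0.48 (standard error 0.28, adjusted p = 0.543 in edgeR). *Gstp2* had 389, 276, 458 and 213 CPM in LWT livers and 575, 314, 361 and 708 CPM in LΔRbfox2 livers, with a log2 fold change of 0.55 (standard error 0.32, adjusted p = 0.542 in edgeR). LΔRbfox2 replicates 1 and 4 were above all LWT livers in both genes, whereas LΔRbfox2 replicate 3 was within the LWT range. Their values were 0.27 and 0.37 with LΔRbfox2 replicates 3 and 4 left out. The third gene of the class, *Gstp3*, stood at 3.56 CPM per kb and had a log2 fold change of −0.013.

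The mu class had the median nearest 0 of the classes. Its 7 genes lie between 107895821 and 108044894 on chromosome 3 and had log2 fold changes from 0.016 to 0.31, with a median of 0.048. With upper-quartile factors 3 of 7 were above 0, as were 3 of 7 without LΔRbfox2 replicates 3 and 4 and 1 of 7 without scaling factors. Their summed CPM was 353, 558, 623 and 414 in LWT livers and 541, 517, 441 and 503 in LΔRbfox2 livers, all 4 LΔRbfox2 livers within the LWT range. *Gstm1*, the most abundant of them at 273 CPM per kb, had 287, 447, 525 and 332 CPM in LWT livers and 455, 436, 323 and 410.2 CPM in LΔRbfox2 livers. Its log2 fold change of 0.029, with a standard error of 0.22, changed sign with upper-quartile factors (−0.022) and without scaling factors (−0.17). The 4 alpha-class genes had values from 0.18 for *Gsta3* to 0.57 for *Gsta4*, an enzyme known for conjugating 4-hydroxynonenal, a product of lipid peroxidation. *Gsta4* had 8.70, 24.6, 21.5 and 10.7 CPM in LWT livers and 29.1, 13.8, 21.2 and 33.0 CPM in LΔRbfox2 livers, with a standard error of 0.38. Summed over the class, CPM was 402, 774, 655 and 367 in LWT livers and 503, 331, 799.8 and 882 in LΔRbfox2 livers, with LΔRbfox2 replicates 3 and 4 above and replicate 2 below the LWT livers. With replicates 3 and 4 left out, the 4 alpha-class values ran from −0.49 for *Gsta3*, whose sign turned, to 0.62 for *Gsta1*, and *Gsta3* was also below 0 without scaling factors, at −0.15. *Gsta1* and *Gsta2* share 81.8% and 35.0% of their 100-base windows with other genes, and both were highest in LΔRbfox2 replicate 1. *Gstk1*, of the kappa class, had a value of 0.40 with a standard error of 0.23.

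*Mgst1*, a membrane-bound transferase of the endoplasmic reticulum and mitochondria, was the most abundant conjugation mRNA at 1273 CPM per kb. It had 1413, 3111, 2060.2 and 1638 CPM in LWT livers and 1940.2, 1965, 4000.2 and 4377 CPM in LΔRbfox2 livers. LΔRbfox2 replicates 3 and 4 were above all LWT livers, and replicates 1 and 2 were near the LWT mean. The means were 2056 ± 753 CPM (SD, n = 4) in LWT livers and 3070.5 ± 1300.2 CPM (SD, n = 4) in LΔRbfox2 livers, with a log2 fold change of 0.58, a standard error of 0.35 and an edgeR p of 0.128 (adjusted p = 0.548). The value was −0.10 without LΔRbfox2 replicates 3 and 4. *Mgst3* had 3.47, 12.3, 7.57 and 3.04 CPM in LWT livers and 7.24, 4.79, 7.85 and 14.1 CPM in LΔRbfox2 livers, with all but LΔRbfox2 replicate 4 within the LWT range, and a log2 fold change of 0.36 with a standard error of 0.47 (adjusted p = 0.733 in edgeR).

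The levels of the 46 genes spanned an 11780-fold range per kb of exon, from 1273 CPM per kb for *Mgst1* to 0.108 CPM per kb for *Ugt1a2*. The order at the top was *Mgst1*, *Gstp1*, *Ugt2b5*, *Gstp2*, *Gstm1*, *Sult2a8*, *Ugt2b36* and *Sult1a1*, and each of these overlapped the next over the 8 livers. This order holds only for the length used, all annotated exon bases of a gene. That length was 4344 bases for *Gsta3* and 5088 for *Gstz1*, against 1457 and 1656 in their longest coding transcripts. Across the 46 genes, the log2 fold change and the level had a Spearman rho of 0.49, a description over genes that share the same 8 libraries. The median coefficient of variation of a gene was 27.5% among LWT livers and 30.7% among LΔRbfox2 livers, and 25 of 46 genes varied more among the LΔRbfox2 livers. The conjugation genes have a median of 2018 exon bases and a GC content of 47.0%, against 4054 bases and 49.4% over 13806 tested genes with annotation. Corrected for GC content and exon length, the median log2 fold change of the conjugation genes was −0.037, with 19 of 46 above 0. At an unadjusted p under 0.05, 2 of the conjugation genes were then higher and 2 lower, beside 5.02% and 2.66% of all tested genes.

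**Figure D3:**
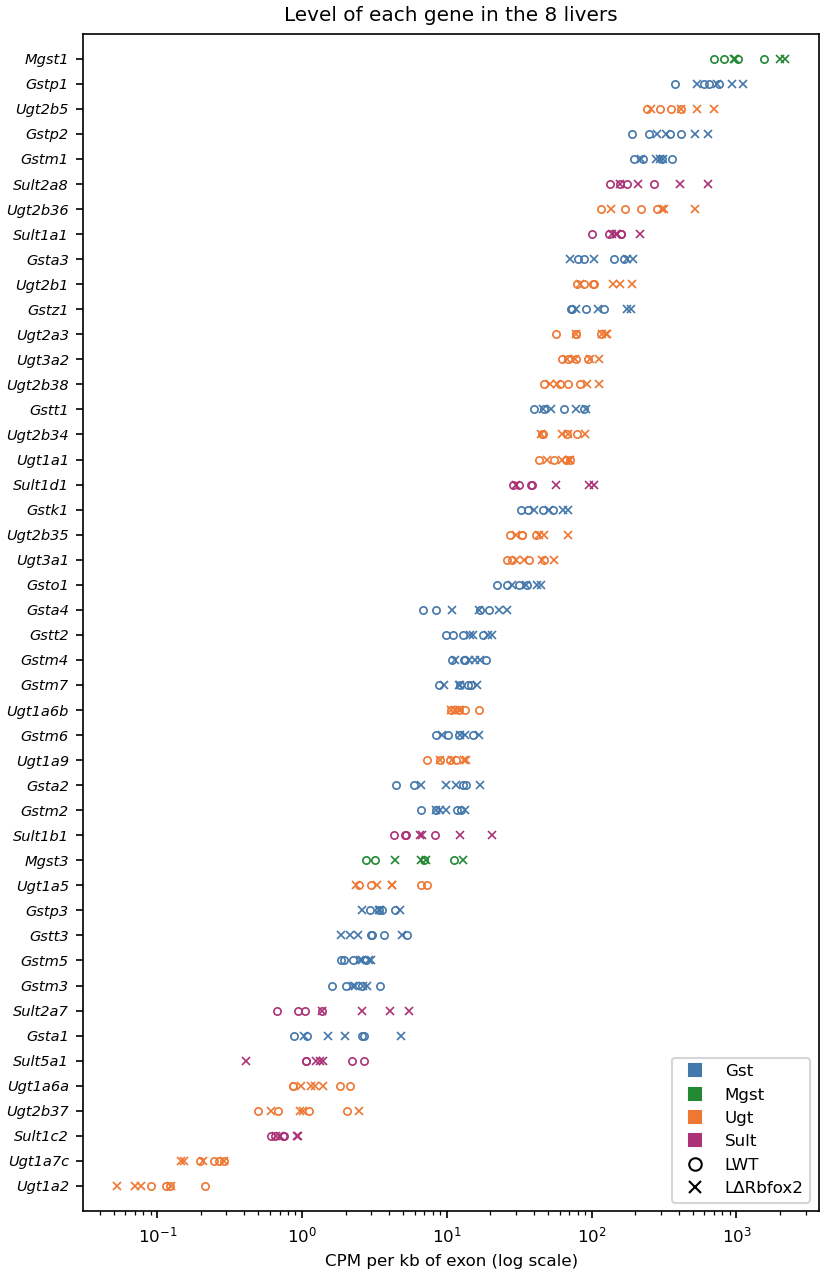
Level of each of the 46 conjugation genes in CPM per kb of exon (horizontal axis, log scale), ordered by the mean over the 8 livers, with open circles for LWT livers, crosses for LΔRbfox2 livers and colours for the 4 families. *Mgst1* is at the top and *Ugt1a2* at the bottom, and circles and crosses overlap in every row.

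The conjugation genes tended to be high or low together in a given liver. The median deviation of the 46 genes from their LWT mean, on the log2 scale, was −0.28, 0.36, 0.14 and −0.25 in LWT replicates 1 to 4 and 0.24, −0.16, 0.45 and 0.46 in LΔRbfox2 replicates 1 to 4. The median over all tested genes stayed between −0.022 and 0.026 in every liver. LΔRbfox2 replicate 4 was the highest liver for 17 genes and LΔRbfox2 replicate 3 for 15, while LWT replicate 1 was the lowest for 20 and LWT replicate 4 for 15. Against the LWT range, 26 of the 46 genes were above it in LΔRbfox2 replicate 4, 24 in replicate 3, 15 in replicate 1 and 1 in replicate 2. Of all tested genes, 32.7%, 31.7%, 21.8% and 13.6% were above the LWT range in the same livers. In LΔRbfox2 replicate 2, 39 of the 46 genes were within the LWT range and 6 below it. Of all tested genes, 13.6% were above and 13.5% below the range in that liver, so most of them were within it too. The conjugation genes together took 0.721%, 1.22%, 1.03% and 0.726% of all unscaled counts in LWT livers and 1.14%, 0.852%, 0.972% and 1.30% in LΔRbfox2 livers. On that scale the genotypes overlapped as well, and LΔRbfox2 replicate 3 was below LWT replicates 2 and 3.

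**Figure D4:**
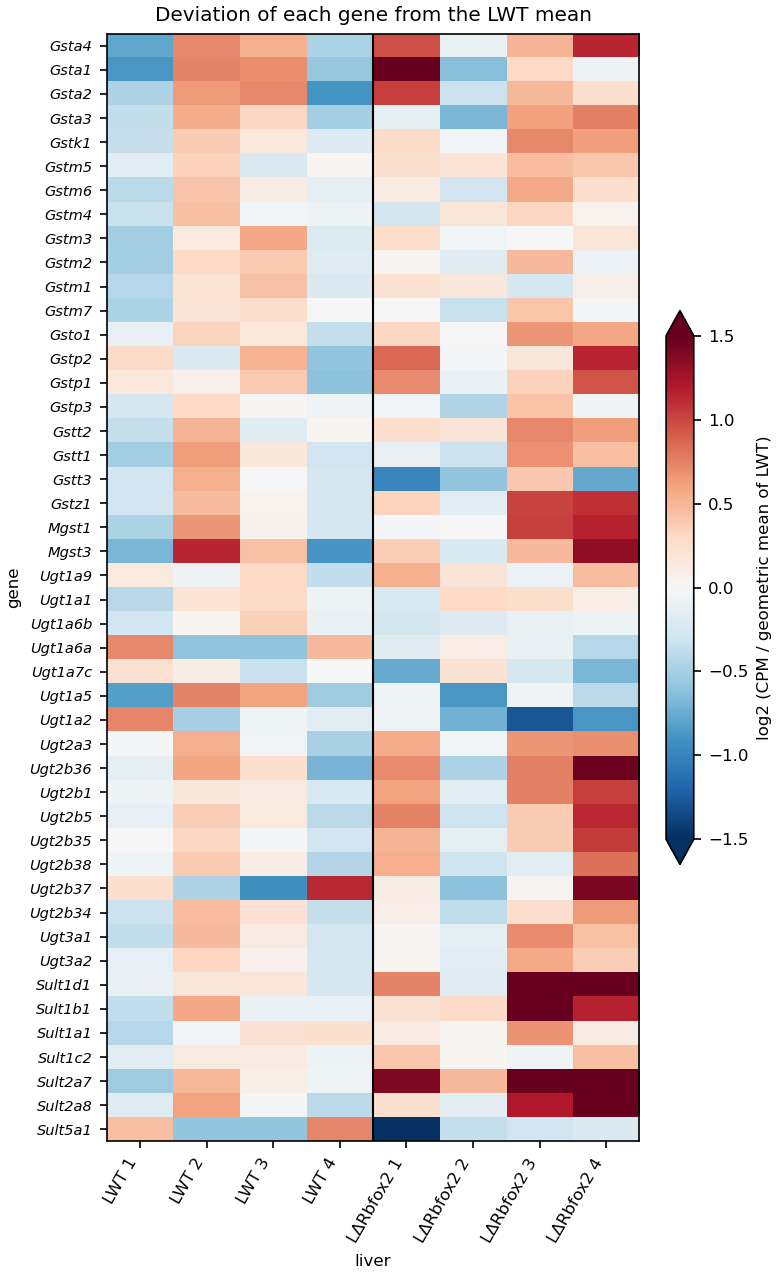
Log2 of the CPM of each conjugation gene (rows) over its geometric mean in LWT livers, for each liver (columns), with red above and blue below the LWT mean. The columns of LWT replicates 1 and 4 are mostly blue, those of LWT replicate 2 and LΔRbfox2 replicates 3 and 4 mostly red, and the *Ugt1a* rows are mixed.

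The same division of livers was seen in the whole transcriptome and in *Rbfox2*. On the first principal axis of all tested genes, which held 54.1% of the variance, LWT replicates 1 and 4 and LΔRbfox2 replicate 2 stood at −59.4, −54.6 and −35.9. The other livers stood at 27.4 and 3.97 (LWT replicates 2 and 3) and at 15.8, 46.7 and 56.0 (LΔRbfox2 replicates 1, 3 and 4). *Rbfox2* was highest among LWT livers in replicates 4 and 1 and highest among LΔRbfox2 livers in replicate 2, the livers where the conjugation genes were low within their genotype. These are values of 8 livers that share the same scaling, and what part the axis played in the difference between genotypes was not tested. Leaving out LΔRbfox2 replicate 2 raised the number of conjugation genes higher at an unadjusted p under 0.05 from 5 to 15, beside 16.8% of all tested genes, and leaving out LWT replicate 2 raised it to 13, beside 13.6%. Leaving out LWT replicate 1 or 4 or LΔRbfox2 replicate 3 lowered it to 2, and leaving out LWT replicate 3 or LΔRbfox2 replicate 4 lowered it to 3. With both LΔRbfox2 replicates 3 and 4 left out it was 1, *Sult2a7*, beside 0.541% of all tested genes. In that setting *Gstt3* was lower, beside 0.678%.

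**Figure D5:**
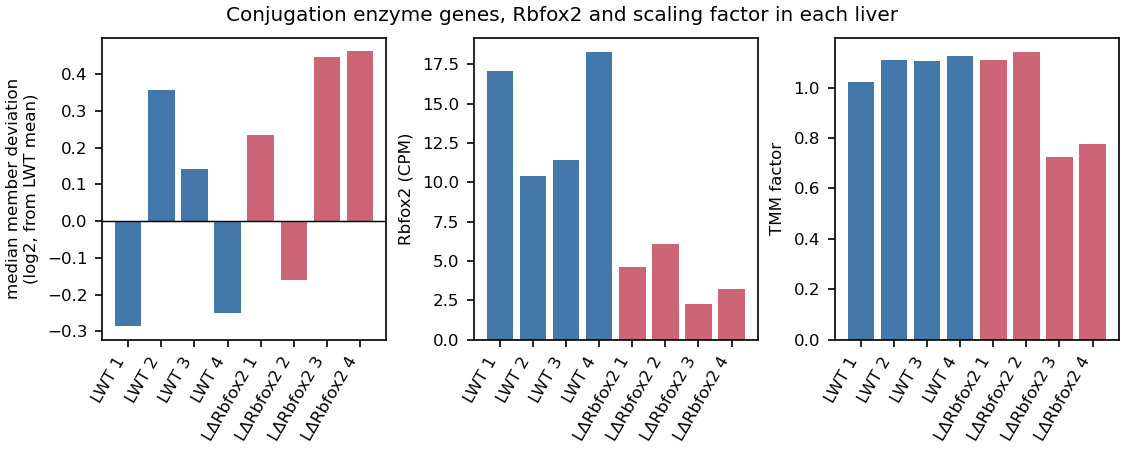
Values of 3 kinds for each liver (horizontal axes; LWT blue, LΔRbfox2 red): the median log2 deviation of the 46 conjugation genes from their LWT mean, *Rbfox2* in CPM and the TMM scaling factor. The livers with the lowest deviation within each genotype, LWT replicates 1 and 4 and LΔRbfox2 replicate 2, have the highest *Rbfox2* of that genotype, and LΔRbfox2 replicates 3 and 4 have the lowest factors, 0.724 and 0.776.

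Other genes of the conjugation pathway were taken from a list by role, of which 43 were found and 42 tested. At an unadjusted p under 0.05, 4 of the 42 were higher and 1 lower in LΔRbfox2 livers, none with an adjusted p under 0.504 in edgeR, and the median log2 fold change was 0.010. Over all tested genes 7.95% were higher and 1.83% lower. Of 12 tested genes listed for the supply and handling of cofactors, 2 were higher. *Slc35b2*, which carries the sulfate donor PAPS into the Golgi, had 19.1, 28.1, 19.0 and 20.7 CPM in LWT livers and 39.9, 22.3, 50.1 and 49.4 CPM in LΔRbfox2 livers, with a log2 fold change of 0.89, a standard error of 0.27 and an edgeR p of 0.00652. LΔRbfox2 replicate 2 was the only LΔRbfox2 liver within the LWT range, and the value was 0.48 without LΔRbfox2 replicates 3 and 4. *Ugp2*, which makes UDP-glucose, the precursor of UDP-glucuronic acid, was the other, at 0.76, and at 0.34 in that setting. Neither *Ugdh*, the next enzyme of that route, nor the PAPS synthases *Papss1* and *Papss2* had a p under 0.05, with log2 fold changes of 0.074, −0.37 and −0.15.

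Conjugation enzymes of other kinds had a log2 fold change above 0 in 10 of 10 genes (median 0.51), beside 48.4% of all tested genes. Without scaling factors 10 of 10 were also above 0, and without LΔRbfox2 replicates 3 and 4 it was 6 of 10. At an unadjusted p under 0.05, 2 of the 10 were higher in LΔRbfox2 livers, beside 7.95% of all tested genes. *Nnmt*, the nicotinamide N-methyltransferase, had 144, 108, 148 and 147 CPM in LWT livers and 376, 138, 329 and 274 CPM in LΔRbfox2 livers, with a log2 fold change of 1.03, a standard error of 0.29 and an edgeR p of 0.00453. Its LΔRbfox2 replicate 2 was within the LWT range and the other LΔRbfox2 livers were above it. *Nat2*, an arylamine N-acetyltransferase, was the other, at 0.90, and at 0.14 without LΔRbfox2 replicates 3 and 4.

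Of the 10 regulators, only *Nr1i2*, which encodes PXR, had an unadjusted p under 0.05. It had 52.8, 49.7, 58.7 and 62.7 CPM in LWT livers and 43.6, 49.1, 42.8 and 40.1 CPM in LΔRbfox2 livers, with a log2 fold change of −0.35, a standard error of 0.15 and an edgeR p of 0.0396. Every LΔRbfox2 liver was below every LWT liver, the closest by less than 1 CPM, but without scaling factors LΔRbfox2 replicate 2, at 56.0 CPM, was above LWT replicates 1 and 2, at 53.9 and 55.1 CPM. Its p was under 0.05 in 11 of 21 alternatives. *Nr1i3*, which encodes CAR, had a value of −0.38 with a standard error of 0.32, *Ahr* of 0.15 with 0.27, and *Nfe2l2*, which encodes NRF2, of 0.12 with 0.16. Without scaling factors *Ahr* and *Nfe2l2* turned to −0.033 and −0.093. The 4 NRF2 targets listed outside the conjugation genes had values between −0.19 (*Txnrd1*) and 0.31. Of these, *Nqo1* turned from 0.31 to −0.12 without LΔRbfox2 replicates 3 and 4. Both genes of deconjugation had values below 0, −0.38 for *Arsa*, a lysosomal arylsulfatase, and −0.030 for *Gusb*, the lysosomal beta-glucuronidase. With LΔRbfox2 replicates 3 and 4 left out they were −0.14 and 0.12. Under every scaling tried, the 4 genes for the export of conjugates had values below 0, none with an unadjusted p under 0.05, from −0.55 for *Abcc2*, the canalicular exporter MRP2, to −0.074. With LΔRbfox2 replicates 3 and 4 left out *Abcc2* was at −0.28, and *Abcc3*, the basolateral exporter MRP3, turned from −0.23 to 0.019. Of the 8 pericentral and 7 periportal genes checked, because many conjugation enzymes are zoned along the liver lobule, none had an unadjusted p under 0.05.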

How the data were processed

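Livers of 4 LWT and 4 LΔRbfox2 mice on a control diet were profiled by poly(A) RNA-seq. The authors aligned 100 basepair paired-end reads to GRCm38 with TopHat2 v.2.0.11 and deposited featureCounts counts per gene, as whole numbers without normalization. The version of featureCounts and its strand and multi-mapping settings are not given in the sources used here. The submitters' processing notes name CASAVA 1.8.4. Columns were matched to livers by the names in the labels, which also gave the genotype. Nothing in the labels ties the replicate numbers to shared litters or days.

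Symbols, positions and exon lengths came from GENCODE M21 (45229 of 46078 identifiers matched). The test was that of edgeR 4.0.16 in R 4.3.3. Of the genes, 13856 passed filterByExpr with its default minimum count (10) and total (15), libraries were scaled by TMM, and glmQLFit and glmQLFTest compared genotypes, with Benjamini–Hochberg adjustment over all genes tested. A gene passed at an adjusted p of at most 0.05. Standard errors came from limma-voom (limma 3.58.1). Permutation tests were exact and two-sided (70 assignments). CPM were scaled by the TMM factors, and levels between genes were compared per kb of exon, over all annotated exons of a gene. A count of 3, the floor for detection, corresponds to 0.0468 to 0.0929 CPM, which covers counting error only. Shared read windows are stretches of 100 bases of a transcript that also occur in another gene. Libraries of a genotype were not copies of each other (chi-square of at least 106 per degree of freedom for each pair). Each animal gave 1 library.

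The genes, lists and settings were chosen with earlier results of these data known. Named in full were the 12 conjugation genes of smallest p and the 3 of highest level per family (18 in all), and within each pathway role the gene of smallest p. Other genes are given with their class or were chosen after their values were seen. Alternatives were DESeq2 1.42.0, limma-voom, other scaling factors and filters, robust estimation, the replicate number as a block, correction for GC content and exon length (lowess span 0.3), 1 surrogate variable (sva 3.50.0), and each liver left out. Added after seeing the data were no scaling factors and the omission of LΔRbfox2 replicates 3 and 4. The tests were also tried on simulated data with known changes. Gene means, library sizes and dispersions of the simulation were taken from the fit to these livers. Of 200 genes given a log2 fold change of 1, edgeR and limma-voom recovered 0 and DESeq2 76, with 34 false calls by DESeq2. Of 200 genes given a log2 fold change of 2, edgeR recovered 168, limma-voom 158 and DESeq2 175. The false calls were then 9, 9 and 41. Tables were made with pandas 2.3.3 and scipy 1.17.1 and plots with matplotlib 3.10.9, in Python 3.11.15.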

Additional observations from a re-analysis of the deposited data

Results flagged for a closer look

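A liver set apart from the other 3 of its genotype was looked for in 56 groups of 4 livers, by the gap to the nearest liver as a share of the range against Dixon's critical value, and found in 4, where chance gives 2.8. *Sult1a1* was at 326 CPM in LΔRbfox2 replicate 3, against 207 to 224 CPM in the other LΔRbfox2 livers. *Nnmt* was at 107.6 CPM in LWT replicate 2, against 144 to 148 CPM in the other LWT livers. *Nr1i3* was at 83.1 CPM in LΔRbfox2 replicate 1, against 159 to 172 CPM in the other LΔRbfox2 livers. *Ahr* was at 27.2 CPM in LΔRbfox2 replicate 2, against 21.3 to 21.5 CPM in the other LΔRbfox2 livers.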

How the results depend on the processing

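No conjugation gene reached an adjusted p of 0.05 in any setting, and the log2 fold changes of the 18 named genes kept their sign in 219 of 234 values under the alternatives that left no single liver out and in 140 of 144 with a liver left out. With each liver left out, 2 to 15 conjugation genes were higher at an unadjusted p under 0.05, beside 2.03% to 16.8% of all tested genes. The number lower ran from 0 to 1, beside 0.895% to 8.10%. The number of pathway genes called ran from 3 to 13, and *Gstm1* from −0.12 to 0.19 on the log2 scale. Upper-quartile factors gave *Gstm1* −0.022, and no filter gave −0.0084.

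Same-numbered livers deviated from their group means with correlations of 0.127, −0.613, 0.122 and −0.514 over genes, and 1 of 8 livers correlated best with its own number. With the replicate block 3 conjugation genes were higher, beside 1.65% of all tested genes. The block with GC content and exon length correction left 1 higher, beside 1.29%, and 2 pathway genes. Its medians were −0.043 for all 46 genes, −0.052 for *Gst* and −0.054 for *Ugt* genes, with *Gstm1* at −0.19 and *Sult1a1* at −0.097. Without the block, the GC content and exon length correction gave 2 higher and 2 lower (*Ugt1a5* and *Ugt1a6b*), beside 5.02% and 2.66% of all tested genes. The medians were then −0.037, −0.048 (*Gst*) and −0.074 (*Ugt*), with *Gstm1* at −0.18, *Mgst3* at −0.00057 and *Sult1a1* at −0.11. With 1 surrogate variable 1 was higher and 3 lower (*Gsta3*, *Gstt3* and *Ugt1a5*), beside 2.85% and 1.63% of all tested genes. In that setting the medians were −0.0115 for all, −0.076 for *Gst*, −0.13 for *Mgst* and −0.032 for *Ugt* genes. *Ugt2b36* was at −0.032, *Gstm1* at −0.055 and *Mgst3* at −0.30. The causes of these changes were not tested.

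Without scaling factors 2 genes were higher and 2 lower, beside 1.47% and 2.84% of all tested genes, and 3 pathway genes were called. The *Gst* and *Ugt* medians were −0.026 and −0.064, *Gstm1* −0.17 and *Sult1a1* −0.024. *Sult2a7* did not overlap between genotypes (1 gene, from 0.881 to 1.96 CPM in LWT and from 1.99 to 5.05 CPM in LΔRbfox2 livers). The share of all tested genes without overlap is not given for this setting, so the count of 1 cannot be set against it. With TMM factors that share was 1.05% higher and 1.23% lower. Without LΔRbfox2 replicates 3 and 4, 1 gene was higher and 1 lower, beside 0.541% and 0.678% of all tested genes, and 1 pathway gene was called. The *Mgst* and *Ugt* medians were −0.14 and −0.11, *Sult2a8* −0.033, *Mgst1* −0.10 and *Mgst3* −0.175.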
